A study of Bos indicus x Bos taurus with 78 samples.

Results

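Dark-cutting degree 1/2 is one of the grades of a beef quality defect in which the loin stays dark, firm and dry, and which low muscle glycogen before slaughter is known to bring about. The steers whose phenotype label gives the fraction 1/2 were compared with those labelled normal, which took 3 dark-cutting and 53 normal steers out of 78. All were male cattle of mixed Bos indicus x Bos taurus descent, and no label names a treatment, an age, a herd or a date. Each gave 1 biopsy of the Longissimus lumborum, a back muscle that forms the loin, which was kept frozen before small RNA was sequenced. The labels explain neither what the fraction measures nor when the biopsy was taken relative to slaughter. Each library has its own title number and is read here as a separate animal. The 3 degree 1/2 animals are called steers 1, 2 and 3 below, numbered in order of accession only. With 3 animals in the smaller group, the question was which microRNAs differ with this degree and how large a difference the data can leave unseen.

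MicroRNAs (miRNAs) are short RNAs that guide silencing proteins to messenger RNAs with matching sites and lower their output. Striated muscle is dominated by miR-1, miR-133a and miR-206, and the slow-fibre miRNAs miR-208b and miR-499 are processed from introns of slow myosin genes. Other miRNAs in a biopsy come from vessels, blood, connective tissue and nerve. In bulk tissue, fewer cells of a type and less RNA per cell cannot be told apart. Because a library is read as shares of its total, each fold change is relative to the other miRNAs of the same library.

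The 3 degree 1/2 libraries held 4335076, 3095648 and 3816038 counts, and the normal libraries between 1427817 and 4535675, with a median of 3211620. The share of counts from miR-1 was 82.3%, 82.3% and 85.2% in the 3 steers, against 72.3% to 88.6% and a median of 84.7% in normal steers. Total count, miR-1 share, the number of miRNAs detected and the scaling factor gave exact permutation p-values of 0.126, 0.588, 0.204 and 0.307 (two-sided, 3 against 53 steers), with a smallest Benjamini-Hochberg adjusted value of 0.409 over these 4 measures. None of the 3 libraries stood apart from the normal ones. They held 7, 6 and 8 miRNAs more than 2 SD from the normal mean, where normal libraries held 2 to 43 with a median of 13. The closest pair among the 1540 pairs of libraries differed by a chi-square of 9.43 per degree of freedom, so none was a near copy of another. Of 1030 miRNA rows, 272 passed the low-count filter, which asked for the equivalent of 10 counts in at least 8 of the 78 libraries.

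No miRNA passed the test. With edgeR's quasi-likelihood test and Benjamini-Hochberg adjustment, 0 of 272 miRNAs (0%) had an adjusted p under 0.05, and the smallest adjusted p was 0.569, for miR-11986b. Before adjustment, 13 miRNAs had a p under 0.05, of which 7 were higher in degree 1/2 steers (2.57% of those tested) and 6 were lower (2.21%). DESeq2, limma-voom and an exact permutation test of each miRNA also called 0, and placed 5 higher and 8 lower, 11 higher and 4 lower, and 5 higher and 4 lower at an unadjusted p under 0.05. The log2 fold change (degree 1/2 minus normal) was above 0 for 135 miRNAs and below 0 for 137, with a median of -0.0020.

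The absence of calls does not show that the groups are alike, but it bounds many of the differences. The 95% confidence interval of the fold change left out a 2-fold difference in either direction in 202 of 272 cases, and a 1.5-fold difference in 99. All 3 steers lay above the normal median for 35 miRNAs (12.9%) and at or below it for 33 (12.1%). For 0 miRNAs (0%) did all 3 steers lie outside the range of the 53 normal steers on the same side.

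**Figure D1:**
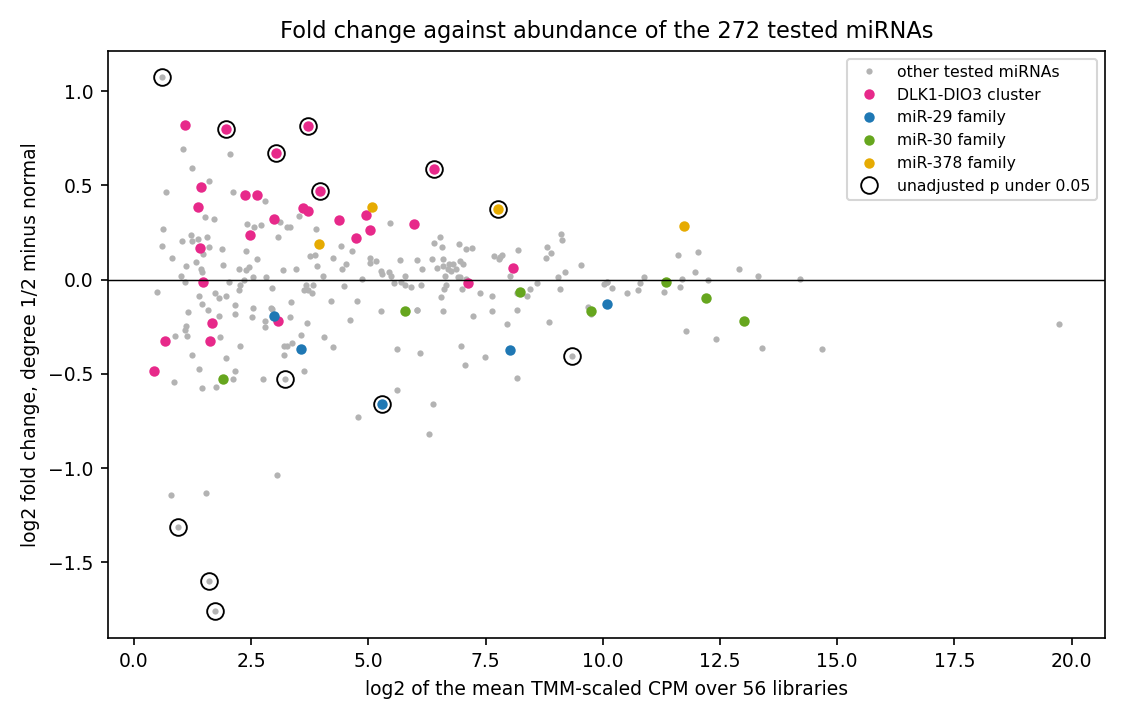
Log2 fold change (degree 1/2 minus normal, vertical axis) against abundance (log2 of the mean CPM over the 56 libraries, horizontal axis) for the 272 tested miRNAs, 1 point each. Circles mark the 13 miRNAs with an unadjusted p under 0.05, and colours mark the DLK1-DIO3, miR-29, miR-30 and miR-378 miRNAs. The spread narrows with abundance, and the 28 DLK1-DIO3 miRNAs lie mostly above 0, with 21 above and 7 below.

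The 2 miRNAs with the smallest p-values were rare ones. The bovine miRNA miR-11986b had 1, 7 and 4 counts in steers 1, 2 and 3, where normal steers had 2 to 21 with a median of 10. Steer 1 lay below every normal steer, steer 3 below 52 of the 53, and steer 2 within the lower part of the normal range. Its log2 fold change was -1.60 ± 0.50 (SE), with an unadjusted p of 0.00209 by edgeR. That value was -1.04 without steer 1 and -2.37 without steer 2. For miR-2285ba, a member of a ruminant-specific family, the 3 steers had 2, 5 and 5 counts and normal steers 1 to 39, with a median of 9. Its level lay below every normal steer in steer 1, and below 41 and 42 of them in steers 2 and 3. The log2 fold change was -1.76 ± 0.68 (SE), with an unadjusted p of 0.0118.

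Counts as low as these also lie behind miR-2422 and miR-302b. For miR-2422 the steers had 9, 14 and 14 counts, against 0 to 11 and a median of 4 in normal steers. Steers 2 and 3 lay above all 53 normal steers on the scaled level, and 20 normal steers lay above steer 1. It had a log2 fold change of 1.07 ± 0.45 (SE), p = 0.0188 before adjustment by edgeR. For miR-302b, known from a cluster of embryonic stem cells, the steers had 5, 1 and 4 counts and normal steers 0 to 17, with a median of 5. Its log2 fold change was -1.31 ± 0.62 (SE), and all 3 steers lay within the normal range.

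More abundant miRNAs in the same group of smallest p-values included miR-628, at log2 CPM (counts scaled to the size of the library) of 2.67, 2.83 and 3.04 in the 3 steers against 2.32 to 4.05 with a median of 3.30 in normal steers. Its log2 fold change was -0.53 ± 0.25 (SE), and the groups overlapped, although all 3 steers were below the normal median. The rest of the group, miR-29b, miR-655, miR-382, miR-543 and miR-378c, belongs to families described next. All 10 shared this outcome: an adjusted p by edgeR of 0.569 for miR-11986b and of 0.942 for the other 9.

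**Figure D2:**
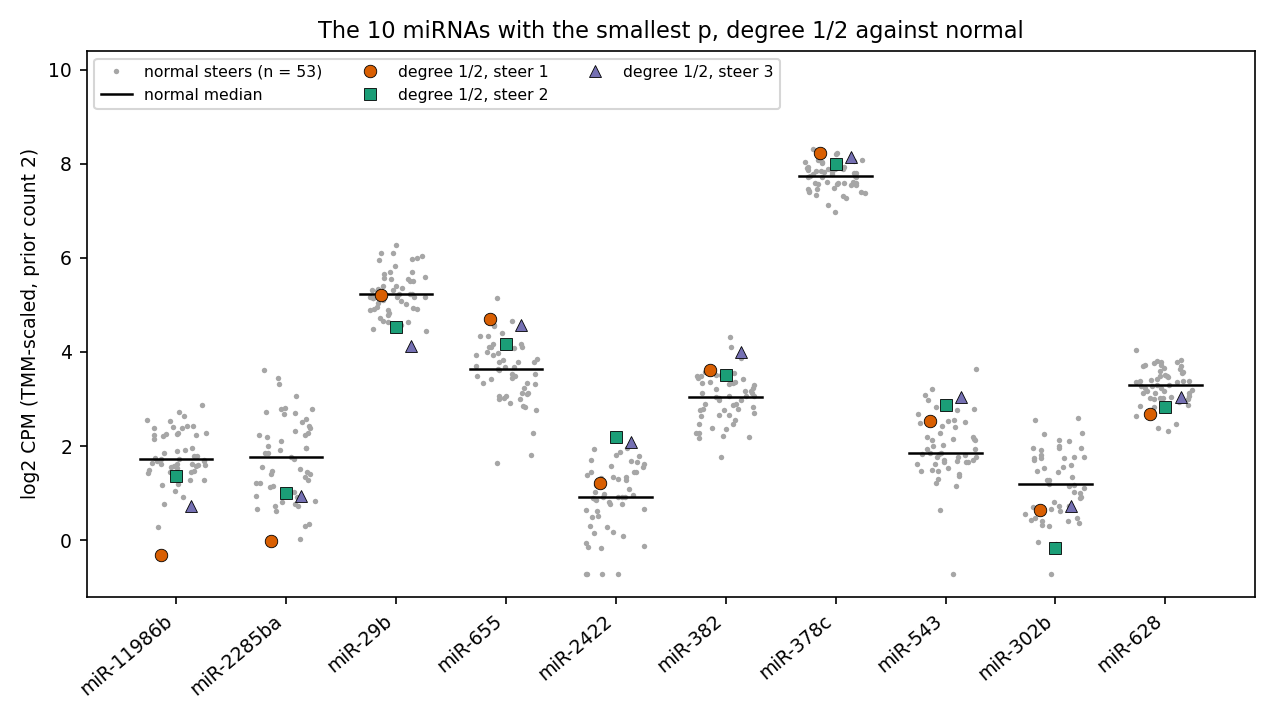
Level of the 10 miRNAs with the smallest p in every library, as log2 CPM with TMM scaling and a prior count of 2 (vertical axis). Grey points are the 53 normal steers, black bars their median, and the coloured symbols the 3 degree 1/2 steers. The coloured symbols lie on 1 side of the bar for each miRNA and inside the grey cloud for most. Steers 2 and 3 lie above it for miR-2422, and below it lie steer 1 for miR-11986b and miR-2285ba and steer 3 for miR-29b.

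The DLK1-DIO3 region is an imprinted locus whose maternal copy gives rise to a large cluster of miRNAs, many of them made in muscle and lowered as muscle matures. Of its 58 miRNA rows 28 passed the filter. Among these, 21 had a log2 fold change above 0 and 7 below, and the median was 0.32, where all 272 tested miRNAs had 135 above, 137 below and a median of -0.0020. None passed the test after adjustment. The cluster held 5 of the 7 miRNAs that were higher at an unadjusted p under 0.05, a rate of 2.57% over all tested, and 0 of the 6 that were lower. All 3 steers lay above the normal median for 14 of the 28, where 12.9% of all tested miRNAs did so. The 28 miRNAs share a locus and may vary together between animals, so these counts may not be of separate measurements.

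Of these 5, miR-655 differed by most, with log2 CPM of 4.71, 4.18 and 4.58 in steers 1, 2 and 3, against 1.65 to 5.15 and a median of 3.64 in normal steers. All 3 steers were in the upper part of the normal range: 1, 7 and 2 of the 53 normal steers lay above them. Its log2 fold change was 0.81 ± 0.33 (SE), p = 0.0172 before adjustment by edgeR. For miR-382 the values were 3.62, 3.50 and 4.01, against 1.77 to 4.32 and a median of 3.05, with 3, 7 and 2 normal steers above. On the log2 scale the fold change was 0.67 ± 0.29 (SE), p = 0.0216. Both lay above the normal median in all 3 steers, and within the normal range.

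At 2.53, 2.88 and 3.04 log2 CPM, miR-543 was also above the normal median of 1.85 in all 3 steers, within a normal range of -0.72 to 3.63. It had a log2 fold change of 0.80 ± 0.37 (SE), p = 0.0325 before adjustment by edgeR. The more abundant miR-381 had 7.13, 6.21 and 7.30 log2 CPM, against 5.28 to 7.67 and a median of 6.26 in normal steers. Steers 1 and 3 had 2 normal steers above them each, whereas steer 2 was just below the normal median. The fold change on the log2 scale was 0.59 ± 0.28 (SE), p = 0.0413, and it was 0.38 without steer 3 and 0.85 without steer 2. The last of the 5, miR-380-3p, was chosen after its values were seen, and had 0.47 ± 0.24 (SE).

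The 2 most abundant members of the cluster had values near 0. For miR-411a the log2 fold change was 0.06 ± 0.22 (SE), and for miR-379 it was -0.02 ± 0.27 (SE). The 95% intervals reached from -0.37 to 0.49 and from -0.56 to 0.52. Also over 50 CPM on average, miR-369-3p had 0.30 ± 0.25 (SE), with all 3 steers above the normal median, but 0.09 without steer 1. The lowest value in the cluster was -0.49, for miR-376b, and the highest 0.82, for miR-299, both rare.

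Read per animal, the cluster was above its normal level in each of the 3 steers, by unequal amounts. The median over the 28 miRNAs of the log2 CPM minus the normal median was 0.48 in steer 1, 0.18 in steer 2 and 0.35 in steer 3. The same quantity ran from -0.58 to 0.74 over normal steers, with 2, 14 and 7 of the 53 above steers 1, 2 and 3. Summed over the cluster, the level was 1075, 930 and 1066 CPM of the total against 464 to 1762 and a median of 739 in normal steers. The median log2 fold change was 0.20 without steer 1, 0.35 without steer 2 and 0.37 without steer 3. With libraries scaled to their total counts only, the median over all 272 miRNAs became 0.17 and that over the cluster 0.48, with 23 members above 0. The libraries of steers 1 and 3 were among the deepest, with 1 and 5 normal libraries deeper, and the part of depth in these values was not tested.

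**Figure D3:**
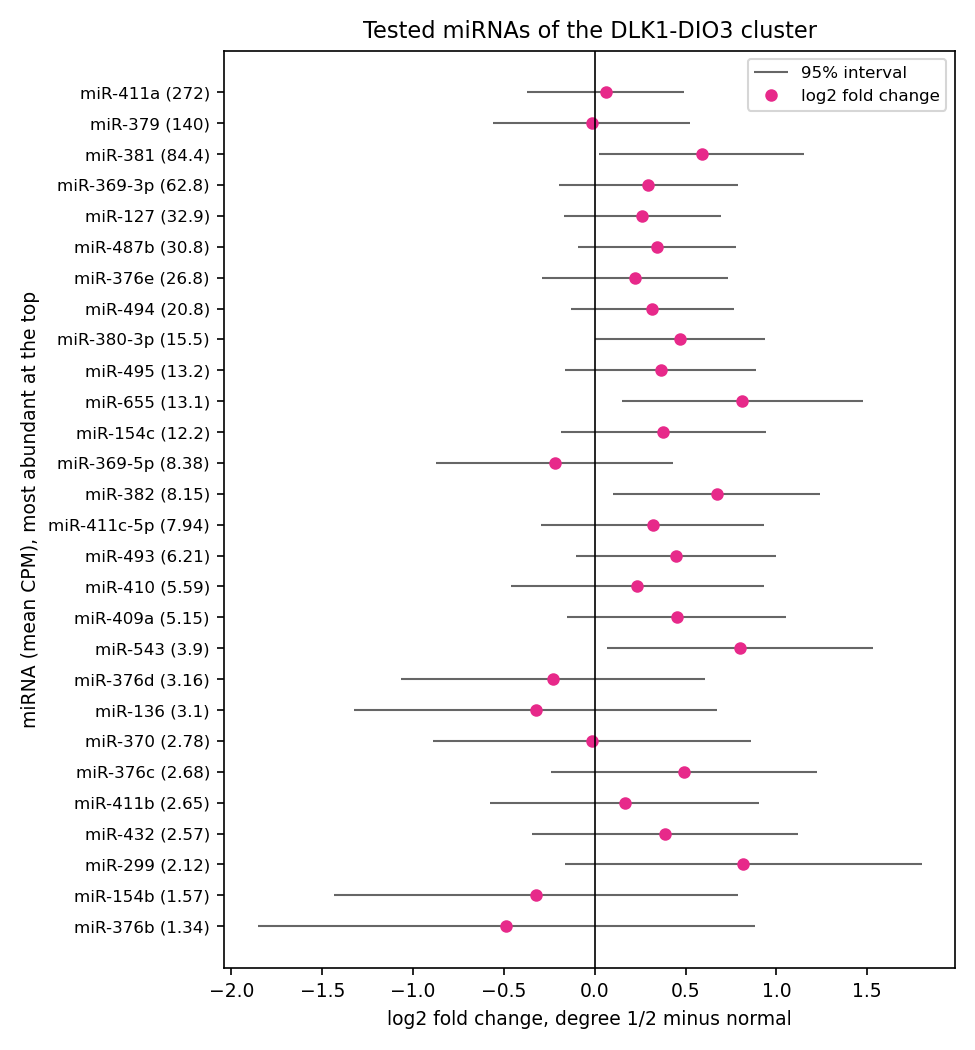
Log2 fold change (degree 1/2 minus normal, horizontal axis) of the 28 tested DLK1-DIO3 miRNAs, with 95% confidence intervals as lines, ordered by mean CPM, which stands in brackets. Of the points 21 are right of 0, and the intervals of 5 miRNAs lie wholly to the right.

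The miR-29 family is known for holding down collagen and other matrix messenger RNAs and has been tied to muscle wasting. All 5 tested members had a log2 fold change below 0, with a median of -0.37, and 1 of them, miR-29b, was lower at an unadjusted p under 0.05 (2.21% of all tested). In steers 1, 2 and 3, miR-29b stood at 5.21, 4.53 and 4.12 log2 CPM, against 4.44 to 6.27 with a median of 5.24 in normal steers. Steer 1 was at the normal median, steer 2 had 2 normal steers below it, and steer 3 lay below all 53. The log2 fold change was -0.66 ± 0.27 (SE), p = 0.0168 before adjustment by edgeR.

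The same split between steers ran through the family. The abundant miR-29a was at 10.31, 9.91 and 9.61, within a normal range of 9.62 to 10.78 in steers 1 and 2 and just under it in steer 3. It had a log2 fold change of -0.13 ± 0.14 (SE). For miR-29c the values were 8.15, 7.46 and 7.26 against a normal median of 8.0, with -0.37 ± 0.25 (SE), or -0.69 without steer 1 and -0.20 without steer 3. The family's median deviation from the normal median was 0.15 in steer 1 but -0.63 and -0.59 in steers 2 and 3, with 13, 52 and 52 of the normal steers above them. Without steer 1 the family's median log2 fold change was -0.63, and it was -0.21 without steer 2 and -0.20 without steer 3. For miR-29b the value was -1.03 without steer 1, -0.58 without steer 2 and -0.44 without steer 3. With total count scaling the family's median was -0.19, and 2 of the 5 members were above 0.

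Steers 2 and 3 also share title numbers of 600 or above, which 35 normal steers have, while steer 1 and 18 normal steers have lower numbers. The highest number of a normal steer was 716, and that of steer 3 was 771. The labels do not say what the numbers mean. Among animals numbered 600 or above, the log2 fold change of miR-29b was -1.12, the miR-29 median was -0.60 and the DLK1-DIO3 median was 0.15. Below 600 there was only steer 1, so no value for that side has a replicate.

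Dark-cutting is known to go with low muscle glycogen, and miRNAs linked to glucose and fat use were read as a list of 10 tested miRNAs. Of these, 9 had a log2 fold change above 0 and 1 below, with a median of 0.16, beside 135 of 272 above 0 among all tested. Without steer 1, 2 or 3, 7, 6 and 7 of the 10 were above 0, and the median was 0.26 without steer 3. At an unadjusted p under 0.05, 1 was higher, beside 2.57% of all tested. That one was miR-378c of the miR-378 family, whose founding member lies in an intron of the gene for the metabolic coactivator PGC-1beta. It stood at 8.23, 7.99 and 8.14 log2 CPM in the 3 steers against 6.98 to 8.31 and a median of 7.74 in normal steers. All 3 were above the median, with 1, 11 and 3 normal steers higher. Its log2 fold change was 0.37 ± 0.16 (SE), p = 0.0263 before adjustment by edgeR.

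Its relatives pointed the same way with intervals that reached 0. For the abundant miR-378 the 3 steers were at 12.17, 11.84 and 11.98, against 10.95 to 12.32 and a median of 11.69, with 0.29 ± 0.15 (SE). The related miR-378d, chosen after its values were seen, had 0.38 ± 0.20 (SE), again with all 3 steers above the normal median. The rarer miR-378b had 0.19 ± 0.29 (SE), and steer 2 was below the normal median. Near-identical miRNAs such as these can share reads, and the sources used here do not give how the authors divided them, so the 4 rows may not be separate measurements.

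Other members of the list were mixed. The rare miR-27a-5p, chosen after its values were seen, had the highest value of the list, 0.52 ± 0.40 (SE), with 48 counts in steer 1, above the whole normal range, and steers 2 and 3 below the normal median. Its other arm miR-27a-3p had -0.18, with all 3 steers at or below the normal median. For miR-103 and miR-107, known regulators of insulin sensitivity, the log2 fold changes were 0.13 ± 0.15 (SE) and 0.09 ± 0.22 (SE). The value for miR-27b, a miRNA of fat metabolism, was 0.0013 ± 0.12 (SE). By animal, the median deviation of the list was 0.39, 0.24 and 0.02 in steers 1, 2 and 3. Steer 1 lay above all 53 normal steers, whose highest was 0.37, and 5 and 25 normal steers lay above steers 2 and 3.

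**Figure D4:**
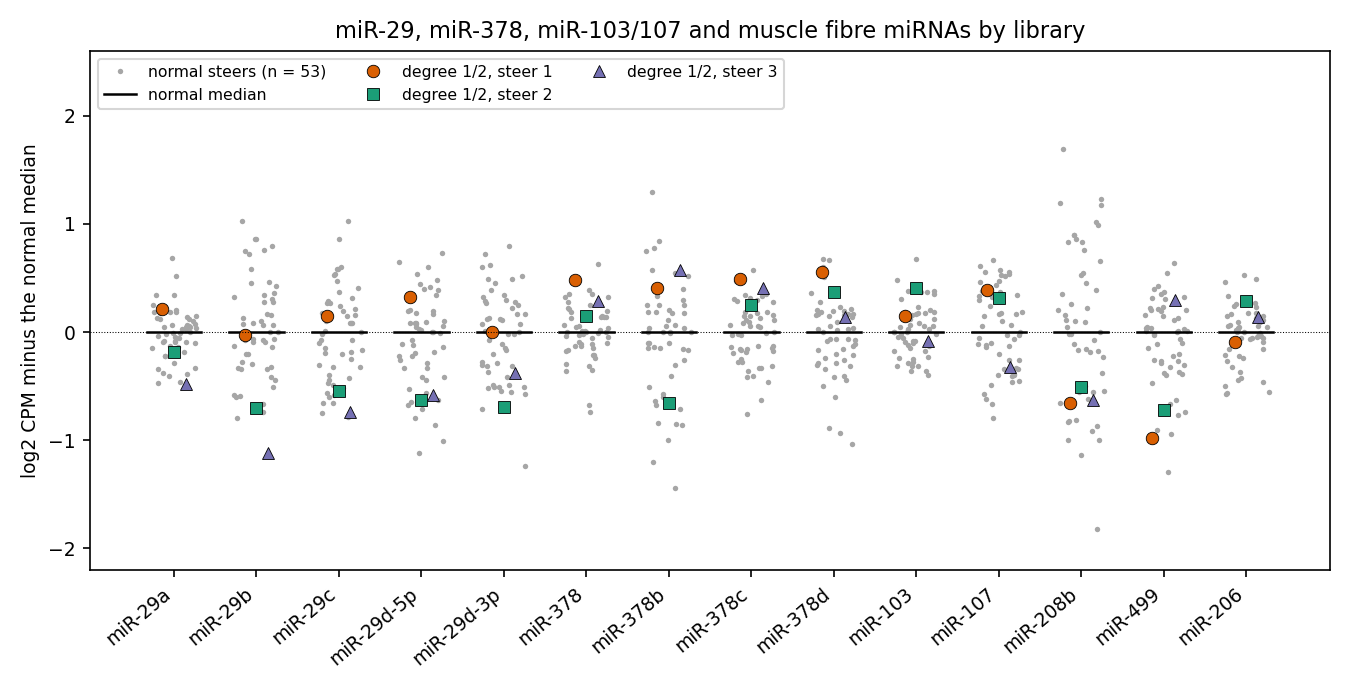
Level of the miR-29, miR-378, miR-103, miR-107 and muscle fibre miRNAs in every library, as log2 CPM minus the normal median (vertical axis). Grey points are the 53 normal steers and coloured symbols the 3 degree 1/2 steers. Steer 3 is the lowest point for miR-29b, the 3 steers are above the line for miR-378, miR-378c and miR-378d, and all 3 are below it for miR-208b.

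Among muscle miRNAs, the slow-fibre miRNA miR-208b had the most negative value. It stood at 5.47, 5.62 and 5.50 log2 CPM in the 3 steers, against 4.31 to 7.82 and a median of 6.13 in normal steers. All 3 were close to each other and below the normal median, but 9, 15 and 11 of the normal steers were lower still. The log2 fold change was -0.82 ± 0.46 (SE), with a 95% interval from -1.73 to 0.09. For miR-499, the other slow-fibre miRNA, the values were 11.49, 11.75 and 12.77 against a median of 12.47. Steers 1 and 2 were low and steer 3 was high, with a log2 fold change of -0.31 ± 0.24 (SE). That value was -0.08 without steer 1, -0.16 without steer 2, -0.80 without steer 3 and -0.0026 among animals numbered 600 or above.

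The remaining muscle miRNAs gave small values. For miR-1 the log2 fold change was -0.23 ± 0.19 (SE), with all 3 steers below the normal median after TMM scaling. As a share of all counts, miR-1 was above the normal median in steer 3, at 85.2% against 84.7%. Over the other scalings, methods, filters and sample sets, its log2 fold change ran from -0.26 to -0.016. The values were 0.01 ± 0.21 (SE) for miR-133a, 0.13 ± 0.15 (SE) for miR-206, which is known from regenerating fibres, and 0.24 ± 0.21 (SE) for miR-486, which muscle and red cells both make and which had 0.07 without steer 1. For miR-133a the value was -0.29 without steer 1 and 0.22 without steer 3. Of the 7 tested muscle miRNAs 4 had a value above 0 and 3 below, with a median of 0.0054. With DESeq2's size factors, and also without steer 1, 2 were above and 5 below. All 8 striated muscle rows together, summed as CPM of the total, held 863095, 852920 and 876576 in the 3 steers and 763160 to 902527 in normal steers.

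Markers of other cells in a biopsy were read the same way. White blood cell miRNAs had 7 of 8 log2 fold changes below 0, with a median of -0.39, beside 137 of 272 below 0 among all tested. With limma-voom, permutation and total count scaling 6 of the 8 were below 0, with medians of -0.35, -0.29 and -0.25. Among animals numbered 600 or above all 8 were below 0, with a median of -0.34. The list includes both arms of miR-142, and also miR-146a, miR-146b and miR-342. At an unadjusted p under 0.05, 0 of the 8 were lower, beside 2.21% of all tested. The inflammation miRNA miR-146a was at 5.46, 5.56 and 6.18 log2 CPM against 5.11 to 7.84 and a median of 6.17, with -0.66 ± 0.43 (SE). For miR-142-5p, made in all blood cell lineages, the values were 4.42, 4.89 and 5.66 against 4.45 to 7.16 and a median of 5.53, with -0.58 ± 0.35 (SE), which was -0.33 without steer 1 and -1.0 without steer 3. Steers 1 and 2 were low for both and steer 3 was at the normal median. The list's median deviation was -0.48, -0.37 and 0.01, against -0.70 to 1.17 in normal steers, with 47, 45 and 28 of them above. The list's median log2 fold change was -0.21 without steer 1. The lymphocyte miRNA miR-150 had -0.31, whereas miR-155 of activated lymphocytes had 0.06 and the myeloid miR-223 had -0.04. For 2 of the 8, miR-155 and miR-223, all 3 steers lay above the normal median, and for 2 all lay at or below it.

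Endothelial miRNAs had 3 of 4 values above 0 and a median of 0.24. The leading miR-126-3p had -0.0010 ± 0.18 (SE) and its other arm miR-126-5p 0.21 ± 0.17 (SE). By animal the list's median deviation was 0.37, 0.38 and 0.20, with 3, 3 and 18 normal steers above. For smooth muscle and pericytes, miR-143 had -0.37 ± 0.30 (SE), or -0.12 without steer 1 and -0.54 without steer 3, and miR-145 had 0.12 ± 0.24 (SE). Fibroblast miRNAs had 2 of 6 above 0 and a median of -0.04, with -0.04 ± 0.13 (SE) for miR-21-5p and -0.05 ± 0.27 (SE) for miR-199a-3p. Their median deviation was 0.15, -0.37 and 0.51, so steers 2 and 3 were on opposite sides of the normal median, and the list's median log2 fold change was 0.13 without steer 2 and -0.23 without steer 3.

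The red blood cell list held miR-451, miR-144, miR-363 and, shared with other lists, miR-486, miR-16a, miR-16b, miR-25 and miR-92a. It split evenly, with 4 above 0, 4 below and a median of -0.08. For miR-451, the leading red cell miRNA, the log2 fold change was -0.41 ± 0.65 (SE), and it was 0.02 without normal steer 19, -1.01 without steer 2, -0.18 without steer 1 and -0.19 without steer 3. The 3 steers were at 6.5, 7.85 and 6.53 log2 CPM, on both sides of the normal median of 6.86. The rarer red cell miRNA miR-144 had -0.40 ± 0.65 (SE), with 1 of the 3 steers above its normal median. The abundant miR-16a, also of the miR-15/16 family, which restrains the cell cycle, was lower at an unadjusted p of 0.0447 by edgeR. It stood at 9.09, 9.0 and 8.79 against 8.72 to 10.11 with a median of 9.33, and had -0.41 ± 0.20 (SE). The near-identical miR-16b had -0.16 ± 0.15 (SE), and reads of the pair may not be separable. Of 6 nerve rows 3 passed the filter, and miR-124a, miR-124b and miR-9-3p did not. The tested ones had 1 of 3 above 0, or 2 of 3 without steer 1 or steer 2. For miR-128 the value was -0.09 ± 0.19 (SE) and for miR-7 -0.09 ± 0.20 (SE). Of 3 liver rows 2 passed the filter, and miR-122 did not. Those 2, miR-192 and miR-194, had 0.04 ± 0.21 (SE) and 0.02 ± 0.19 (SE), and both were below 0 without steer 2. None of the 6 epithelial miRNA rows passed the filter, and together they made up 0.692, 0 and 0.262 CPM in the 3 steers and at most 1.86 in a normal steer. The part of blood, vessel or matrix cells in the other values was not tested.

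**Figure D5:**
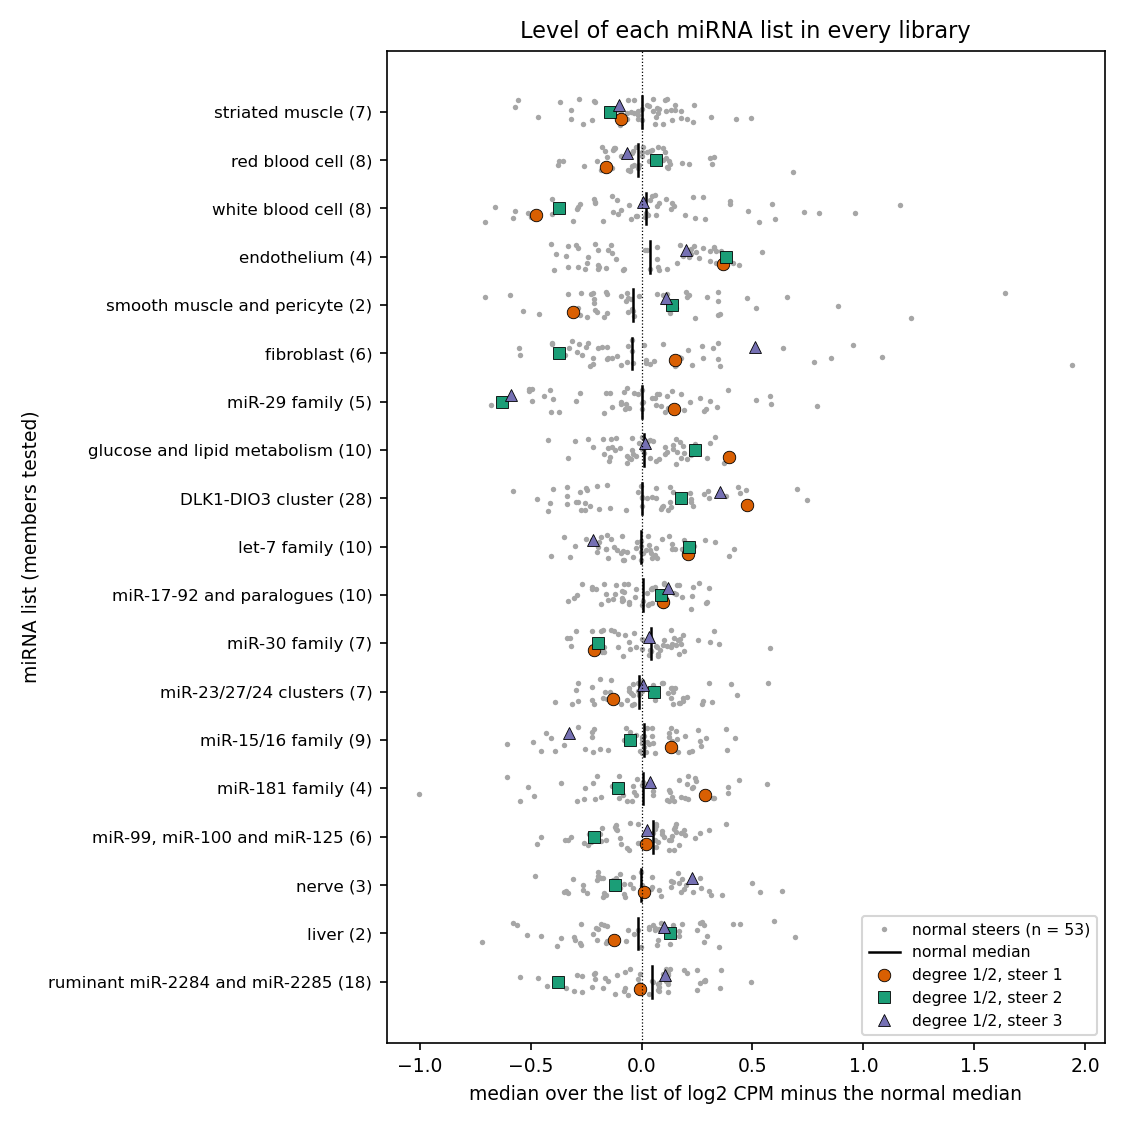
Median deviation of each miRNA list from the normal level in every library: the median over the list's tested members of log2 CPM minus the normal median (horizontal axis, 0 dotted). Grey points are the 53 normal steers, black bars their median and coloured symbols the 3 degree 1/2 steers, with the number of tested members in brackets. All coloured symbols lie inside the normal range except that of steer 1 for glucose and lipid metabolism, at 0.39 against a highest normal value of 0.37.

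The large miRNA families described next had median log2 fold changes from -0.16, for miR-30, to 0.08, for let-7. The let-7 family, known for promoting differentiation, had 8 of 10 members above 0 and a median of 0.08, with 0.06 ± 0.14 (SE) for let-7f and 0.15 ± 0.16 (SE) for let-7a-5p. Its median deviation was 0.21 and 0.22 in steers 1 and 2 and -0.22 in steer 3, and without steer 2 the median log2 fold change was -0.0026, with 5 members above 0. Of the growth-linked miR-17-92 cluster and its paralogues 9 of 10 were above 0, with a median of 0.07. With DESeq2's size factors, and without steer 1 or steer 2, 7 of the 10 were above 0, and the median was 0.15 without steer 3. Their leading members miR-92a and miR-25, shared with the red cell list, had 0.16 ± 0.13 (SE) and 0.0032 ± 0.16 (SE). The miR-30 family had all 7 members below 0 and a median of -0.16, led by miR-30e-5p at -0.22 ± 0.18 (SE), which was -0.08 without steer 1 and -0.37 without steer 3, and miR-30a-5p at -0.10 ± 0.18 (SE). With total count scaling, 4 of the 7 were above 0. All 6 miRNAs of the miR-99, miR-100 and miR-125 group were below 0 with a median of -0.07, and 4 of the 6 were above 0 with total count scaling. Without steer 2 that median was 0.02. In that group miR-99a-5p had -0.07 ± 0.15 (SE) and miR-125b -0.04 ± 0.13 (SE).

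The rest of the families were divided. The miR-23/27/24 clusters had 3 members above 0 and 4 below with a median of -0.01, and miR-24-3p had -0.27 ± 0.22 (SE), or -0.11 without steer 1. The miR-15/16 family had 3 above and 6 below, with a median of -0.05, which was -0.21 without steer 1 and 0.09 without steer 3. The miR-181 family had 3 above and 1 below and a median of 0.08 (-0.02 without steer 1), with 0.04 ± 0.17 (SE) for miR-181a and 0.11 ± 0.18 (SE) for miR-181b. The hypoxia miRNA miR-210, a rare one here, had 0.27 ± 0.51 (SE), or 0.06, 0.66 and -0.025 without steers 1, 2 and 3. Of 148 rows of the ruminant-specific miR-2284 and miR-2285 family 18 were tested, with 8 above 0 and 10 below and a median of -0.03. With total count scaling, which lifted the median of all miRNAs as given above, the medians of the fibroblast, smooth muscle, red cell, nerve, miR-23/27/24, miR-15/16 and miR-2284/2285 lists were above 0. The most abundant of the tested miR-2284 and miR-2285 miRNAs, miR-2284x and miR-2285bf, had 0.08 ± 0.12 (SE) and -0.37 ± 0.30 (SE).

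Some abundant miRNAs lay outside the lists. Of these, miR-22-3p, a miRNA abundant in heart and muscle, had -0.36 ± 0.21 (SE), with all 3 steers below the normal median, and miR-26a, known from myoblast differentiation, had 0.02 ± 0.12 (SE). The 95% interval for miR-26a ran from -0.22 to 0.26. Among miRNAs over 50 CPM, the lowest values after miR-208b and miR-146a were those of miR-32, which shares its seed with miR-92a, at -0.52 ± 0.30 (SE) or -0.34 without steer 1, of miR-6119-5p at -0.45 ± 0.29 (SE) and of miR-451.

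Each steer had its own set of extreme miRNAs. Steer 1 lay outside the normal range for 8 miRNAs, steer 2 for 6 and steer 3 for 7, where a normal steer lay outside the range of the other 52 for a median of 8 and between 2 and 35. Only miR-2422 was on the list of more than 1 of the 3 steers. In steer 1 the abundant miR-365-3p was above the normal range, at 8.36 against a highest normal value of 8.31. In steer 2 miR-199b was below it, at 5.75 against a lowest of 5.78. In steer 3 miR-196b was below it, at 5.80 against 6.05. These 3 were chosen after their values were seen.

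The 758 rows that did not pass the filter were also read. Of these, 223 had a count in at least 1 of the 3 steers and 74 in all 3, with at most 20 counts in a library. None of the 74 was without counts in the normal steers.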

How the data were processed

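Total RNA of frozen loin biopsies was made into small RNA libraries with a NEXTflex kit, per the labels' protocols. Trimmomatic 0.32, FastQC and DESeq2 1.34.0 stand in the submitters' processing notes. Which aligner, counter, miRNA reference and build the authors used was not given in the sources used here, and neither positions nor sequences are reported. The deposited matrix holds raw whole-number read counts per miRNA and steer, per the file headers and values. Each column is headed by a title number, and all 78 matched a label. A table of the authors' own results was not used here.

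Groups came from the phenotype label. The test was edgeR 4.0.16 under R 4.3.3 (quasi-likelihood F test, robust dispersion, TMM scaling, Benjamini-Hochberg adjustment, threshold 0.05) in 1 fit of all 78 libraries and 6 groups, which share an estimate of the spread. The low-count filter asked for the equivalent of 10 counts in 8 or more libraries and a sum of 15. Log2 CPM used a prior count of 2, which draws low values together. List sums in CPM are shares of the total. DESeq2 1.42.0, limma 3.58.1 (voom) and exact two-sided permutation tests over the 27720 ways to choose 3 of 56 steers served as alternatives, beside other scalings, filters and sample sets. The fit was also run on simulated counts with known changes, drawn separately for each miRNA, as a check of the code. No result given here rests on that run. Rows with counts identical to an earlier row numbered 21 in the table and 0 among those tested.

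With fewer than 10 calls, the text names the 10 smallest p-values, the 5 highest and 5 lowest fold changes over 50 mean CPM, the 10 most abundant miRNAs and from each list the 2 tested members of highest abundance. Further examples of a list were chosen after their values were seen. The comparison and the lists were chosen with earlier results of these data known. Some miRNAs belong to more than 1 list.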

Additional observations from a re-analysis of the deposited data

How the results depend on the processing

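No setting called a miRNA: the smallest adjusted p ran from 0.169, in edgeR without steer 2, to 0.978, with the filter of 10 counts in 39 libraries. No paired analysis was possible, because each library was read as a separate animal and the labels pair no animals between the groups. The counts at an unadjusted p under 0.05, 7 higher and 6 lower, became 16 and 10 with a filter of 10 counts over all libraries (542 tested), and 12 and 2 with total count scaling. There were 11 higher with limma-voom, 3 higher among animals numbered 600 or above, and 3 lower with the filter of 39 libraries. Leaving out 1 steer in turn gave 4 to 9 higher and 3 to 7 lower. With total count scaling, which raised the median of all fold changes to 0.17, 89 miRNAs had all 3 steers above the normal median and 14 had all 3 at or below it, while the let-7 median was 0.28 and the miR-17-92 median 0.25. Of the named miRNAs, under that scaling the log2 fold change turned from below to above 0 for miR-125b (0.12), miR-126-3p (0.16), miR-128 (0.090), miR-16b (0.019), miR-199a-3p (0.084), miR-21-5p (0.12), miR-29a (0.048), miR-30a-5p (0.090), miR-379 (0.15), miR-7 (0.098) and miR-99a-5p (0.092).

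Elsewhere, signs turned mostly for miRNAs within 0.06 of 0. The value of miR-133a was -0.019 with DESeq2 and -0.019 with its size factors in edgeR, -0.0078 by permutation, -0.0092 with limma-voom, -0.0082 and -0.017 with the looser filters (10 counts over all, and in 3, libraries), -0.015 in the 56 libraries alone and -0.28 among animals numbered 600 or above. For miR-25 it was -0.012 with DESeq2, -0.013 with its size factors, -0.0055 and -0.019 with the looser filters and -0.015 in the 56 libraries. For miR-26a it was -0.0081 with DESeq2, -0.0081 with its size factors, -0.0084 with the filter of 3 libraries, -0.0033 in the 56 libraries and -0.13 among animals numbered 600 or above. For miR-27b it was -0.012 with DESeq2, -0.012 with its size factors, -0.00091 with the number term, -0.0068 and -0.023 with the looser filters, -0.0021 with limma-voom and -0.019 in the 56 libraries. For miR-194 it was -0.0084 with the filter of 3 libraries and -0.0029 in the 56. For miR-379 it was 0.024 by permutation, 0.021 with limma-voom, 0.00074 with the filter of 39 libraries and 0.032 among animals numbered 600 or above. It was 0.0019 by permutation and 0.0021 with limma-voom for miR-199a-3p, and 0.0078 with the filter of 39 libraries for miR-126-3p. Among animals numbered 600 or above it was 0.20 for miR-126-3p, -0.047 for miR-181a and 0.043 for miR-21-5p. With DESeq2, miR-451 was at 0.012.

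Leaving out 1 steer in turn, the log2 fold change ran from -0.065 to 0.20 for let-7f, -0.15 to 0.055 for miR-125b, -0.26 to 0.22 for miR-126-3p, -0.20 to 0.093 for miR-128, -0.29 to 0.22 for miR-133a, -0.066 to 0.12 for miR-181a, -0.019 to 0.15 for miR-192, -0.027 to 0.065 for miR-194, -0.23 to 0.14 for miR-199a-3p and -0.23 to 0.064 for miR-21-5p. It ran from -0.025 to 0.66 for miR-210, -0.13 to 0.099 for miR-25, -0.18 to 0.13 for miR-26a, -0.097 to 0.12 for miR-27b, -0.33 to 0.021 for miR-29a, -0.25 to 0.13 for miR-379, -0.14 to 0.19 for miR-411a, -1.01 to 0.018 for miR-451, -0.26 to 0.029 for miR-7 and -0.17 to 0.059 for miR-99a-5p. The cause of these turns was not tested.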
